A study of Oryctolagus cuniculus with 35 samples.

Results

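S100A8, CAMP, LTF and MPO, 4 rabbit genes for antimicrobial proteins of the neutrophil, were followed in lung messenger RNA. They were chosen by symbol, and each matched 1 row of the 23669 rows in every deposited table, of which 16304 carry a symbol. The study sequenced lung from 35 New Zealand rabbits, 1 library per rabbit, in 5 groups of 7. Healthy rabbits received NaCl. The other 28 rabbits had pneumonia caused by pneumococci together with adverse mechanical ventilation. They were allocated at random to NaCl, to human umbilical cord mesenchymal stem cells (MSC, into a vein), to ceftaroline (a cephalosporin antibiotic, 20 mg/kg into muscle) or to ceftaroline plus MSC. Treatments were given 4 h after the bacteria. Lung was taken at autopsy 24 h after the bacteria or at an earlier death, and the labels do not say which rabbits died early, nor their ages. Infection and ventilation came together in all 28 rabbits and cannot be told apart.

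Neutrophils carry their antimicrobial proteins in granules that are filled one after another while the cell matures in the bone marrow. MPO, myeloperoxidase of the azurophil granules, is transcribed early in that course. LTF (lactoferrin, which binds iron) and CAMP (the precursor of a cathelicidin peptide that damages bacterial membranes) belong to the specific granules and are transcribed later. S100A8 pairs with S100A9 to form calprotectin, a cytosolic complex that withholds zinc and manganese from bacteria and is abundant in mature neutrophils and in monocytes. Calprotectin can signal through the receptors TLR4 and AGER.

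Libraries held between 7567008 and 33209729 recovered reads (median 11137017). Levels are given in RPM, the reads of a gene per 1000000 reads of its library, scaled between libraries by the TMM method of edgeR, and set groups side by side for 1 gene; they are not divided by gene length, so they are not compared between genes. A title ending, PD or PG, stands on 5 healthy, 3 NaCl and 2 MSC libraries and on none of the others. Its meaning is not given in the labels. Alveolar epithelial markers were present in all groups, at a summed level of 17648 to 27297 RPM in healthy lung and 1289 to 19619 RPM in the pneumonia groups, although SFTPC, SFTPD and ABCA3 were listed at 0 in all libraries. So were 10217 of the 23669 rows, for a reason that was not tested. A gene listed at 0, here or below, is therefore not read as absent from the lung. Healthy replicate 7 stood above the other healthy libraries for all 4 genes, so results against healthy lung are given with and without it where it matters.

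**Figure D1:**
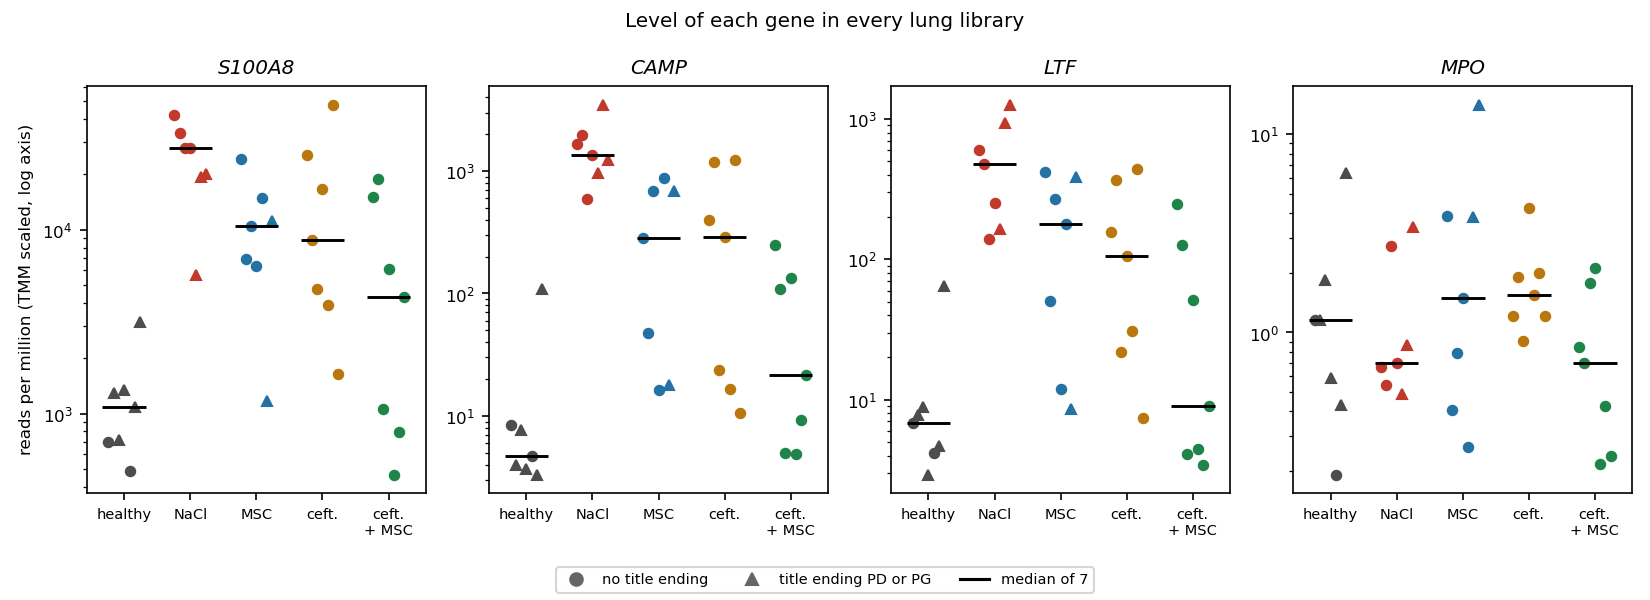
Level of S100A8, CAMP, LTF and MPO in each of the 35 libraries, in TMM-scaled RPM on a log axis, with 7 libraries in each of the 5 groups; bars are group medians and triangles are libraries with a title ending. S100A8, CAMP and LTF are highest by median in the NaCl group (27671, 1341 and 478 RPM) and spread widely in the treated groups, while MPO medians lie between 0.698 and 1.54 RPM.

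S100A8 (ENSOCUG00000009566), the calprotectin subunit, was at 489, 1088 and 3129 RPM in healthy lung as the lowest, median and highest of 7 libraries. In pneumonia with NaCl the corresponding levels were 5645, 27671 and 42121 RPM. Every NaCl library thus lay above every healthy library. With MSC they were 1167, 10416 and 24099 RPM, with ceftaroline 1640, 8817 and 47964 RPM, and with both 466, 4292 and 18878 RPM. The treated groups overlapped the NaCl group, and each had at least 1 library inside or below the healthy range. For ceftaroline this rests on healthy replicate 7. Without that library the highest healthy value was 1344 RPM, and the lowest ceftaroline library, at 1640 RPM, lay above it. S100A8 alone took 2.01% ± 0.81 of all recovered reads in the NaCl group (SD, n = 7) and 0.138% ± 0.093 in healthy lung (SD, n = 7).

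CAMP (ENSOCUG00000015518), the cathelicidin precursor, was near the floor of the healthy libraries, at 3.32, 4.73 and 108 RPM as lowest, median and highest. The highest value was replicate 7, and the next was 8.49 RPM. NaCl libraries held 594, 1341 and 3489 RPM, again all above healthy. MSC libraries were at 16.3, 285 and 880 RPM, ceftaroline libraries at 10.6, 290 and 1241 RPM, and ceftaroline plus MSC libraries at 4.87, 21.4 and 247 RPM. No library of the combined group reached the lowest NaCl library, whereas 3 of 7 MSC and 2 of 7 ceftaroline libraries did. Within the MSC group CAMP ranged 54.0-fold and within the ceftaroline group 117-fold, against 5.88-fold in the NaCl group.

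LTF (ENSOCUG00000023796), lactoferrin, was at 2.93, 6.81 and 64.5 RPM in healthy lung, the highest again being replicate 7 and the next 8.90 RPM. The NaCl group stood at 140, 478 and 1270 RPM and did not overlap the healthy group. The MSC group was at 8.63, 180 and 417 RPM, the ceftaroline group at 7.46, 106 and 444 RPM, and the combined group at 3.41, 9.05 and 246 RPM. In the combined group 1 library, replicate 1, lay inside the NaCl range and 5 of 7 lay within the healthy range. The last count rests on healthy replicate 7. Combined replicates 4 and 7, at 51.7 and 9.05 RPM, lay above the next healthy value of 8.90 RPM.

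MPO (ENSOCUG00000006526), myeloperoxidase, had only 3 to 141 reads per library, so that its values are coarse. Healthy libraries were at 0.192, 1.15 and 6.36 RPM and NaCl libraries at 0.491, 0.700 and 3.40 RPM. MSC libraries were at 0.266, 1.50 and 14.1 RPM, ceftaroline libraries at 0.902, 1.54 and 4.25 RPM, and combined libraries at 0.216, 0.698 and 2.12 RPM. All 5 groups overlapped, and no order of the groups stood out from the spread within them. The highest MSC value belonged to replicate 7, a library with a title ending.

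Pneumonia with ventilation was compared with healthy lung to ask what disease does to the lung transcriptome. CAMP rose 182-fold, by 7.51 in log2 (SE 0.64, adjusted p = 1.65e-07 by limma), LTF by 5.73 (SE 0.63, adjusted p = 1.97e-06) and S100A8 by 4.41 (SE 0.45, adjusted p = 8.88e-07). CAMP ranked 10 and LTF 31 from the highest fold change among 9545 genes tested. Of all genes tested, 29.7% were called higher at an adjusted p under 0.05, and 13.9% were higher with no overlap between the groups, as the 3 members were. MPO did not reach the minimum of 10 normalized reads in 7 libraries. Tested without that minimum, MPO gave a log2 fold change of 0.04 (adjusted p = 0.961 by limma). Since these are bulk samples, a change in the number of cells of a type and a change in RNA per cell cannot be told apart, here and in the comparisons that follow.

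The rises were also computed within title endings. Among libraries without an ending (2 healthy, 4 NaCl), the limma log2 fold change was 5.83 for S100A8, 7.66 for CAMP and 5.92 for LTF, with adjusted p of 0.000108, 0.000127 and 0.000529. Among libraries with an ending (5 healthy, 3 NaCl) it was 3.33, 7.59 and 6.02, with adjusted p of 0.000349, 0.000148 and 0.00036 by limma. The S100A8 value was the smaller among libraries with an ending, a difference that was not tested. In the NaCl group the 3 libraries with an ending held 5645 to 20211 RPM of S100A8 and the 4 without it held 27671 to 42121 RPM. A further mark in the library names, S00, is carried by the whole healthy group and by a single NaCl library (replicate 2), so what it marks and the disease cannot be told apart.

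The size of the CAMP rise depended on the scale: edgeR, which averages reads rather than log values, put it at 6.37 in log2 (adjusted p = 3.14e-05). The authors' deposited table for this comparison gives log2 fold changes of 6.36 for CAMP, 5.31 for LTF, 4.36 for S100A8 and -0.29 for MPO.

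MSC alone and ceftaroline alone were each compared with NaCl to ask what either treatment does to diseased lung. Neither comparison called any member. With MSC, limma gave log2 fold changes of -1.45 for S100A8 (SE 0.61, adjusted p = 0.245), -3.24 for CAMP (SE 0.91, adjusted p = 0.159) and -2.23 for LTF (SE 0.90, adjusted p = 0.229). With ceftaroline it gave -1.26 for S100A8 (SE 0.69, adjusted p = 0.352), -3.41 for CAMP (SE 1.04, adjusted p = 0.149), -2.46 for LTF (SE 0.86, adjusted p = 0.173) and 0.65 for MPO (SE 0.46, adjusted p = 0.478). The CAMP estimate had the lowest fold change of all 9614 genes in the ceftaroline comparison and the third lowest of 9446 with MSC. MPO was under the minimum with MSC; without the minimum it stood at 0.67 (adjusted p = 0.713 by limma). The 2 comparisons share the 7 NaCl libraries.

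Background calls were as scarce. limma called 0.0% of the genes tested in the MSC comparison (0 genes, with 1672 at an unadjusted p under 0.05; edgeR called 0 and DESeq2 335). It called 0.0% in the ceftaroline comparison too (0 genes, with 1760 at an unadjusted p under 0.05; edgeR called 0 and DESeq2 519). DESeq2 called no member in either: its adjusted p for CAMP was 0.0699 with MSC and 0.147 with ceftaroline. On the edgeR scale the CAMP differences were smaller, -2.12 with MSC (adjusted p = 0.207) and -1.83 with ceftaroline (adjusted p = 0.273). The authors' deposited tables list CAMP at an adjusted p of 0.0722 with MSC and 0.156 with ceftaroline.

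Ceftaroline plus MSC was compared with ceftaroline to ask what the cells add to the antibiotic. Medians were lower with both for every member, yet none was called by limma. The log2 fold changes were -1.57 for S100A8 (SE 0.94, adjusted p = 0.474), -2.19 for CAMP (SE 1.31, adjusted p = 0.472), -1.99 for LTF (SE 1.17, adjusted p = 0.468) and -1.24 for MPO (SE 0.49, adjusted p = 0.426). The MPO value rests on few reads, 11 to 130 per ceftaroline library and 4 to 29 per library with both treatments. Over all genes 0.0403% were called, 4 of 9924. The standard errors near or above 1 for CAMP, LTF and S100A8 come with wide ranges inside the 2 groups, in which CAMP varied 117-fold and 50.8-fold.

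The pairs of groups that no deposited table compares were tested with edgeR on recovered reads in a fit of all 35 libraries. Against NaCl, ceftaroline plus MSC held less CAMP, at a log2 difference of -4.40 (SE 1.18, adjusted p = 0.00609), less LTF, at -3.11 (SE 1.03, adjusted p = 0.0213), and less S100A8, at -1.92 (SE 0.72, adjusted p = 0.0402). Of all 10345 genes tested, 14.9% were called lower. CAMP was lower in every combined library than in every NaCl library, which 2.24% of the genes were. MPO gave -0.55 (SE 0.76, adjusted p = 0.604), and -0.099 without NaCl replicate 7 (adjusted p = 0.94). CAMP had the 9th lowest fold change of the genes tested.

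The S100A8 call against NaCl was close to its threshold. It was lost when NaCl replicate 1, 2, 3 or 4 or combined replicate 3, 4, 5, 6 or 7 was left out, with adjusted p from 0.0556 to 0.0817 by edgeR, and it was lost with no minimum on reads (adjusted p = 0.0518). The LTF call was lost among libraries without a title ending (-2.54, adjusted p = 0.0861 by edgeR), where CAMP stayed at -4.19 (adjusted p = 0.0184).

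Every treated group was also set against healthy lung. With MSC alone edgeR gave log2 fold changes of 3.10 for S100A8 (adjusted p = 0.00139), 4.22 for CAMP (adjusted p = 0.00396) and 3.72 for LTF (adjusted p = 0.00496), and 26.8% of all genes tested were called higher. With ceftaroline alone it gave 3.64 for S100A8 (adjusted p = 0.00032), 4.49 for CAMP (adjusted p = 0.00228) and 3.50 for LTF (adjusted p = 0.00631), and 28.9% of all genes were called higher. Among libraries without a title ending, which leave 2 healthy libraries, CAMP and LTF with MSC and LTF with ceftaroline were no longer called (adjusted p = 0.0568, 0.0638 and 0.069 by edgeR). MPO was not called in either, at 1.07 with MSC (adjusted p = 0.209) and 0.17 with ceftaroline (adjusted p = 0.854). Without healthy replicate 7 the MPO value with MSC was 2.01 (adjusted p = 0.0247 by edgeR).

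In the combined group S100A8 was still higher than in healthy lung, at a log2 difference of 2.41 (SE 0.73, adjusted p = 0.0132 by edgeR), and 19.9% of all genes were called higher. CAMP gave 1.92 (SE 1.07, adjusted p = 0.161) and LTF 2.15 (SE 1.00, adjusted p = 0.0955), neither called, and MPO -0.90 (adjusted p = 0.351). These values turn on healthy replicate 7. Without it CAMP was called at 3.83 (adjusted p = 0.0113 by edgeR) and LTF at 3.43 (adjusted p = 0.0159). The S100A8 call was lost without combined replicate 2 (1.89, adjusted p = 0.0524 by edgeR) and among libraries without a title ending (3.49, adjusted p = 0.108).

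**Figure D2:**
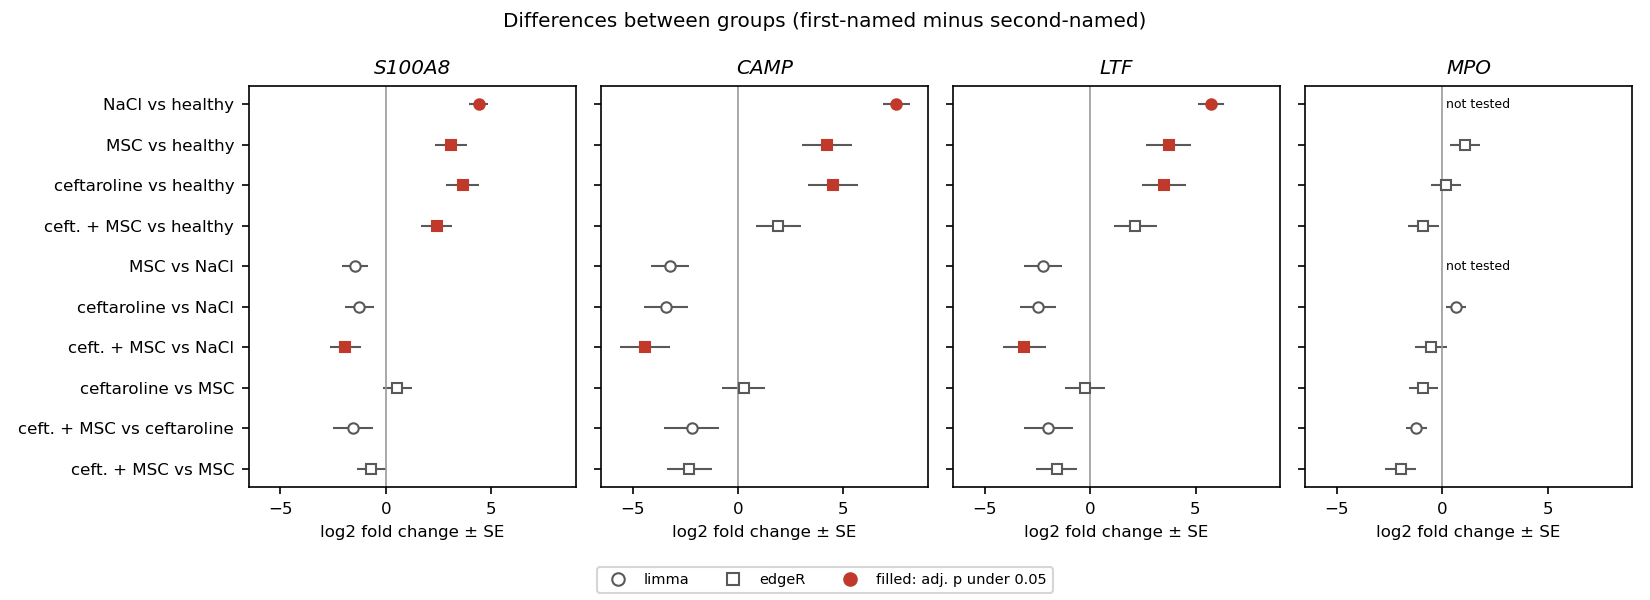
Log2 fold change with its standard error for each gene in 10 comparisons of 2 groups, 7 libraries each; circles are limma on log2(normalized reads + 1), squares are edgeR on recovered reads, and filled symbols have an adjusted p under 0.05. S100A8, CAMP and LTF are filled in NaCl, MSC and ceftaroline against healthy and in ceftaroline plus MSC against NaCl, and no MPO symbol is filled.

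The 2 single treatments were not told apart by any member. edgeR gave ceftaroline minus MSC as 0.54 for S100A8 (SE 0.70), 0.27 for CAMP (SE 1.02), -0.22 for LTF (SE 0.95) and -0.90 for MPO (SE 0.69), each with an adjusted p of 1.0. It called 0.0% of all genes there (0 genes, with 192 at an unadjusted p under 0.05; DESeq2 called 2). Ceftaroline plus MSC minus MSC was -0.69 for S100A8 (adjusted p = 0.73), -2.30 for CAMP (adjusted p = 0.46), -1.57 for LTF (adjusted p = 0.55) and -1.97 for MPO (adjusted p = 0.413), where 0.029% of all genes were called. Without MSC replicate 7 the MPO value was -0.98 (adjusted p = 0.84 by edgeR), without MSC replicate 1 the S100A8 value was -0.35 (adjusted p = 0.918), and without combined replicate 1 the LTF value was -2.52 (adjusted p = 0.36). These errors leave room for sizeable differences.

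Ordered by median, S100A8 and LTF ran from NaCl through MSC, ceftaroline and the combined group to healthy, and CAMP did so with ceftaroline and MSC exchanged. Of the neighbours in these orders, only the combined group and healthy lung differed past the threshold, and only for S100A8 (for CAMP and LTF too without healthy replicate 7). By median MPO ran from ceftaroline and MSC through healthy to NaCl and the combined group, with no neighbours called when all libraries were used. Whether MSC acted differently with than without ceftaroline was tested as the difference of the 2 MSC effects. It was 0.00 for S100A8 (SE 0.99), -0.47 for CAMP (SE 1.45), 0.19 for LTF (SE 1.35) and -2.49 for MPO (SE 1.03, unadjusted p = 0.0215), with adjusted p of 1.0, 0.987, 0.994 and 0.647 by edgeR. Without MSC replicate 7 the MPO value was -1.50, again not called. Over all genes 0.0193% were called.

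The balance between members was followed as the log2 ratio of reads of 2 genes in the same library, a measure added after the values had been seen. A ratio compares groups, not the genes, and needs no scaling between libraries. CAMP over S100A8 was -7.09 ± 1.36 in healthy lung and -3.97 ± 1.11 in the NaCl group (SD, n = 7 each), a rise of 3.13 (exact permutation p = 0.00117, adjusted p = 0.014 over 24 tests, two-sided). In the combined group it was -6.75 ± 0.87, lower than in NaCl by a difference of -2.79 (exact permutation p = 0.00117, adjusted p = 0.014) and not shown to differ from healthy (0.34, exact permutation p = 0.59, adjusted p = 0.702). With MSC it was -5.75 ± 1.82 and with ceftaroline -6.12 ± 1.73, neither past the threshold against NaCl after adjustment (exact permutation, adjusted p = 0.168 and 0.0932). Among libraries without a title ending the rise against healthy was 1.86 (exact permutation p = 0.133, the 2 healthy and 4 NaCl libraries leaving few arrangements).

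CAMP over LTF rose as well, from -0.01 ± 0.58 in healthy lung to 1.77 ± 0.87 in NaCl (SD, n = 7 each), a difference of 1.78 (exact permutation p = 0.00291, adjusted p = 0.0233). Among libraries without a title ending it was 1.74 (exact permutation p = 0.133). LTF over S100A8 gave a difference of 1.35 (exact permutation p = 0.0583, adjusted p = 0.168). Without a title ending it was 0.11 (exact permutation p = 0.933), and the unadjusted exact permutation p was 0.0303 without healthy replicate 7, 0.0175 without NaCl replicate 3 and 0.049 without NaCl replicate 4. S100A9 over S100A8, the 2 calprotectin subunits, had group means between 0.59 and 0.86 and passed the threshold in none of 6 comparisons, the lowest adjusted p being 0.432 by exact permutation.

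**Figure D3:**
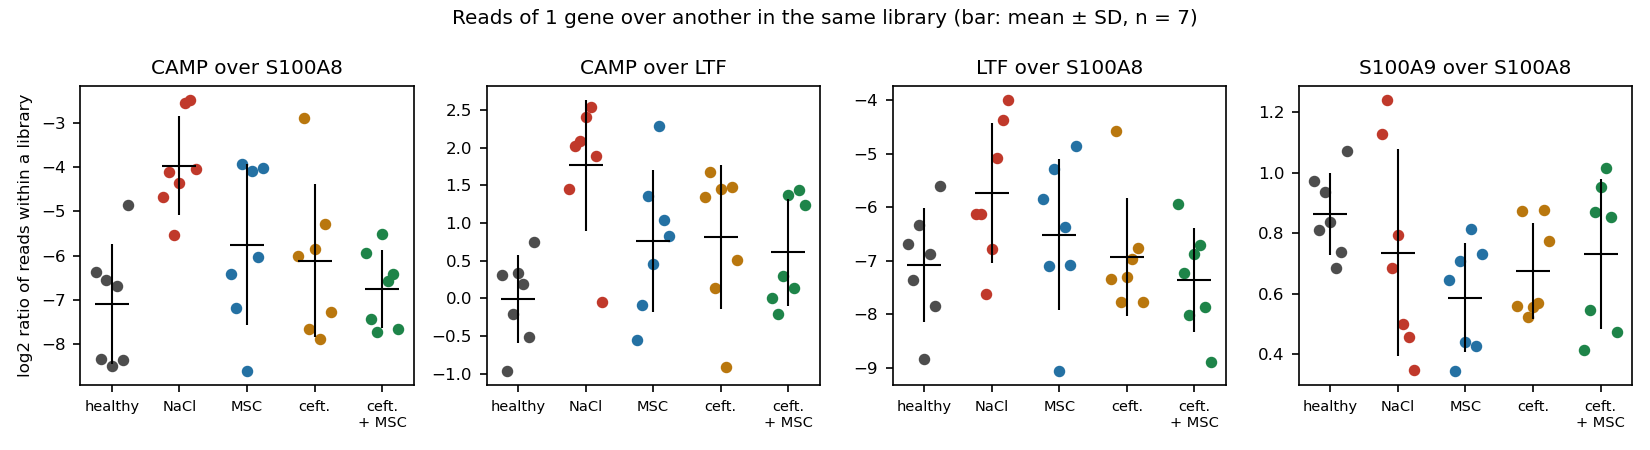
Log2 ratio of the reads of 2 genes within each library, for the 5 groups of 7, with the group mean and SD as bars. CAMP over S100A8 has its highest mean in the NaCl group (-3.97) and its lowest in healthy lung (-7.09), whereas the group means of S100A9 over S100A8 stay between 0.59 and 0.86.

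Rabbits with much S100A8, CAMP or LTF tended to have much of the other two. With group means taken out of log2(RPM + 1), CAMP and LTF had a Pearson r of 0.929 and a Spearman rho of 0.922 over 35 libraries. S100A8 and LTF had 0.816 and 0.806, and S100A8 and CAMP 0.775 and 0.785. Each of these 6 values had a permutation p of 1e-05, the smallest that 100000 arrangements within groups can give, and 2e-05 after adjustment over 6 pairs. Without the 2 libraries farthest from the median on the x axis, r was 0.915, 0.791 and 0.745. Among the 25 libraries without a title ending r was 0.937, 0.867 and 0.819.

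With group means taken out, MPO had r of 0.186 with S100A8, 0.269 with CAMP and 0.331 with LTF (permutation p adjusted over 6 pairs 0.27, 0.18 and 0.11), with rho of 0.244, 0.277 and 0.35 (adjusted p = 0.16, 0.15 and 0.076 by permutation). Within healthy lung alone, where replicate 7 stands apart, MPO had r of 0.732, 0.928 and 0.96 with these 3 genes, and in the other groups r lay between -0.468 and 0.47 (n = 7 each, given as descriptions). Within the NaCl group alone S100A8 had r of 0.202 with CAMP and 0.294 with LTF, against 0.93 and 0.928 within the combined group (n = 7 each, given as descriptions). The range of S100A8 was 7.46-fold in NaCl and 40.5-fold in the combined group.

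**Figure D4:**
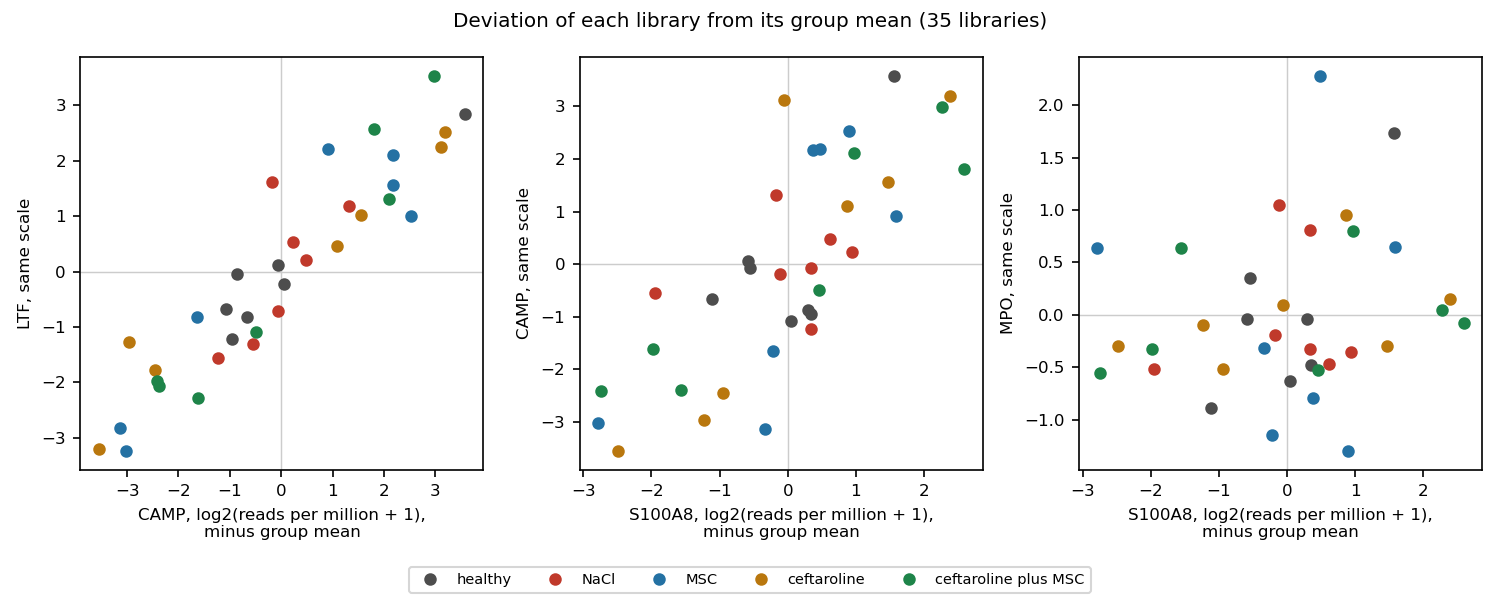
Deviation of each of the 35 libraries from its group mean, in log2(RPM + 1), for CAMP and LTF, S100A8 and CAMP, and S100A8 and MPO; each point is a library, coloured by group. The points of CAMP and LTF lie along a line (r = 0.929), those of S100A8 and CAMP spread more (r = 0.775), and those of S100A8 and MPO show little relation (r = 0.186).

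The genes most like each member were sought among 6445 named genes whose mean reached 5 RPM, as a description over 35 libraries that share their groups and scaling. S100A8 was most like S100A9 (Pearson r = 0.994), DGAT2 (0.969), which makes triglycerides, and TCN1 (0.968), a vitamin B12 binder of specific granules. CAMP was most like LTF (0.965), ADGRG3 (0.946), an adhesion receptor of neutrophils, and PTGS2 (0.934), the inducible cyclooxygenase. LTF was most like CAMP, CRISP3 (0.922), another specific granule protein, and BMX (0.919), a tyrosine kinase. MPO had no close match: its nearest were ARHGAP10 (0.65), TLN1 (0.581) and TAGLN2 (0.529), the latter 2 for proteins of the actin skeleton. With group means taken out, S100A9 (0.989), LTF (0.929) and CAMP (0.929) remained first for S100A8, CAMP and LTF, and ARHGAP10 (0.706) for MPO.

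S100A9 (ENSOCUG00000008632), the calprotectin partner, was at 786, 1813 and 6575 RPM in healthy lung and 7977, 44473 and 92080 RPM in the NaCl group. It reached 1569, 17009 and 37732 RPM with MSC, 2804, 16163 and 88109 RPM with ceftaroline and 942, 5959 and 27565 RPM with both. In the RefSeq annotation of another build, mOryCun1.1, S100A8 and S100A9 lie with 1 gene between them. Its log2 fold change with disease was 4.28 (SE 0.53, adjusted p = 6.08e-06 by limma) and its difference with both treatments against NaCl was -2.22 (SE 0.75, adjusted p = 0.0244 by edgeR). Of the receptors, AGER, also an alveolar type I cell marker, fell by 1.09 with disease (adjusted p = 0.00813 by limma), and TLR4 was listed at 0 in all 35 libraries.

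Other genes of the specific granules mostly rose with the members; some of them (HP, PTX3, CHI3L1, CYBB) are also made by other cells. The list of 15 symbols includes CAMP and LTF. Of all 15, 13 were in the tables, 3 of them listed at 0 in all libraries (LCN2, PGLYRP1 and ORM1), as were 10217 of all 23669 rows. Against healthy lung 8 were tested, CAMP and LTF among them: 7 rose and 1 fell, where 29.7% of all genes were called higher. The median log2 fold change of these 8, members included, was 4.71 against 0.00 over all genes tested. PTX3, a soluble pattern recognition protein, rose by 6.48 (adjusted p = 2.99e-08 by limma), HP, haptoglobin, by 5.46 (adjusted p = 3.65e-07), CRISP3 by 3.96 (adjusted p = 7.34e-06), TCN1 by 3.60 (adjusted p = 1.42e-06) and CHI3L1, a chitinase-like protein, by 2.12 (adjusted p = 1.5e-05). CYBB, the membrane subunit of the NADPH oxidase, fell by 1.04 (adjusted p = 0.00183 by limma). Of 9 tested in the combined group against NaCl, again with CAMP and LTF counted, 6 were lower and 1 higher. Of all 10345 genes tested there, 14.9% were called lower and 1761 genes higher. The median of the 9 was -2.30 against 0.03 over all genes. The 6 were CAMP, LTF, PTX3 (-3.09, adjusted p = 0.00186 by edgeR), CRISP3 (-2.30, adjusted p = 0.00962), TCN1 (-1.97, adjusted p = 0.0252) and MMP8, neutrophil collagenase. MMP8 had 163 reads over the 7 NaCl libraries and 1 read over the 7 combined libraries (adjusted p = 0.000537 by edgeR). CYBB was higher, by 0.86 (adjusted p = 0.0163), and HP and CHI3L1 were not called (-1.01 and 0.73, adjusted p = 0.357 and 0.267). Against healthy lung, 8 of 9 were called higher with MSC (26.8% of all genes) and 8 of 9 with ceftaroline (28.9%), CAMP and LTF among them. With both treatments 4 of 9 were called higher (19.9% of all genes), without CAMP and LTF. Leaving out healthy replicate 7 made this 7 of 9, with CAMP and LTF among them.

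Azurophil granule genes were represented by 6 of 11 symbols in the tables, without ELANE and PRTN3, the proteases usually named beside MPO. MPO and CTSG were under the minimum against healthy lung, and MPO tested without it stood at 0.04 (adjusted p = 0.961 by limma). The 4 tested rose (29.7% of all genes did), with a median of 2.16: SRGN, the granule proteoglycan, by 2.95 (adjusted p = 0.000104 by limma), BPI, which binds endotoxin, by 2.71 (adjusted p = 8.01e-05), CTSC, the peptidase that activates granule proteases, by 1.60 (adjusted p = 0.000253) and CD63, a granule membrane protein also on other cells, by 0.84 (adjusted p = 0.00219). CTSG, cathepsin G, had no read in any healthy or NaCl library, 3 reads over the 7 MSC libraries, 25 over the 7 ceftaroline and 20 over the 7 combined libraries. These totals are not scaled to depth, which was highest by median with ceftaroline (15675806 reads). The CTSG median was 0 RPM with ceftaroline and 0.073 RPM with both, and no library exceeded 0.598 RPM. Against NaCl, 1 of 5 was called lower in the combined group, SRGN (-2.07, adjusted p = 0.0088 by edgeR), a share near the 14.9% of all genes.

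Gelatinase granule and secretory vesicle genes were split. Of 12 symbols 10 were in the tables and 5 were listed at 0 in all libraries (MMP9, FPR1, FPR2, ITGAM and ITGB2). Of the 5 tested against healthy lung, ARG1, arginase, rose by 5.91 (adjusted p = 1.42e-06 by limma), SLC11A1, a metal ion transporter of phagocytes, by 2.80 (adjusted p = 0.000138) and ADAM8, a membrane protease, by 2.63 (adjusted p = 2.4e-06), while CR1, a complement receptor, fell by 1.59 (adjusted p = 0.00427). Thus 3 of 5 were called higher, against 29.7% of all genes, and 1 of 5 lower, against 2952 of all 9545 genes. The combined group held less ADAM8 (-1.70, adjusted p = 0.00229 by edgeR) and SLC11A1 (-1.46, adjusted p = 0.0472) than NaCl, and ARG1 was not called (-0.30, adjusted p = 0.805). Called lower were 2 of 5, against 14.9% of all genes.

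Neutrophil surface receptors rose in 2 of 3 tested against healthy lung, where 29.7% of all genes did; CXCR4 was not called (0.54, adjusted p = 0.168 by limma). IL1R2, the decoy receptor of interleukin 1, rose by 6.05 (adjusted p = 4.74e-07 by limma) and CXCR1, a receptor of CXCL8, by 4.22 (adjusted p = 2.13e-06). Both were lower in the combined group than in NaCl, at -2.81 and -1.99 (adjusted p = 0.0124 and 0.0171 by edgeR), and CXCR4 was not called (-0.55, adjusted p = 0.171). Called lower were thus 2 of 3, against 14.9% of all genes. CSF3R, C5AR1 and PADI4 were listed at 0 in all libraries. Among factors of granulocyte formation, CSF3, the cytokine that drives it, had 12 reads over all healthy libraries and 20129 over the NaCl libraries (log2 fold change 9.47, adjusted p = 1.57e-07 by limma). No healthy library exceeded 0.392 RPM and no NaCl library was under 16.6 RPM. CSF3 thus reached the minimum only through the NaCl libraries, where it was high, and its test adds nothing to these reads. CEBPE, a transcription factor needed for specific granules, rose by 3.52 (adjusted p = 7.62e-05) and was lower with both treatments than with NaCl (-1.67, adjusted p = 0.0408 by edgeR). STAT3, which signals below the CSF3 receptor, rose by 2.14 (adjusted p = 3.19e-07 by limma) and was lower with both treatments than with NaCl (-1.10, adjusted p = 0.00349 by edgeR). SPI1, a transcription factor of myeloid cells, rose by 2.05 (adjusted p = 0.000812 by limma). Of 5 tested, these 4, with CSF3 counted, rose and MYB fell with disease (29.7% of all genes rose). With both treatments against NaCl 2 of 6 were lower (14.9% of all genes) and MYB was higher. Of the NADPH oxidase genes, 2 were tested: NCF4, a cytosolic subunit, rose by 1.92 with disease (adjusted p = 0.000145 by limma) and was not called with both treatments (-0.58, adjusted p = 0.264 by edgeR), and the other was CYBB. None of these lists had a called gene in either single-treatment comparison with NaCl by limma.

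**Figure D5:**
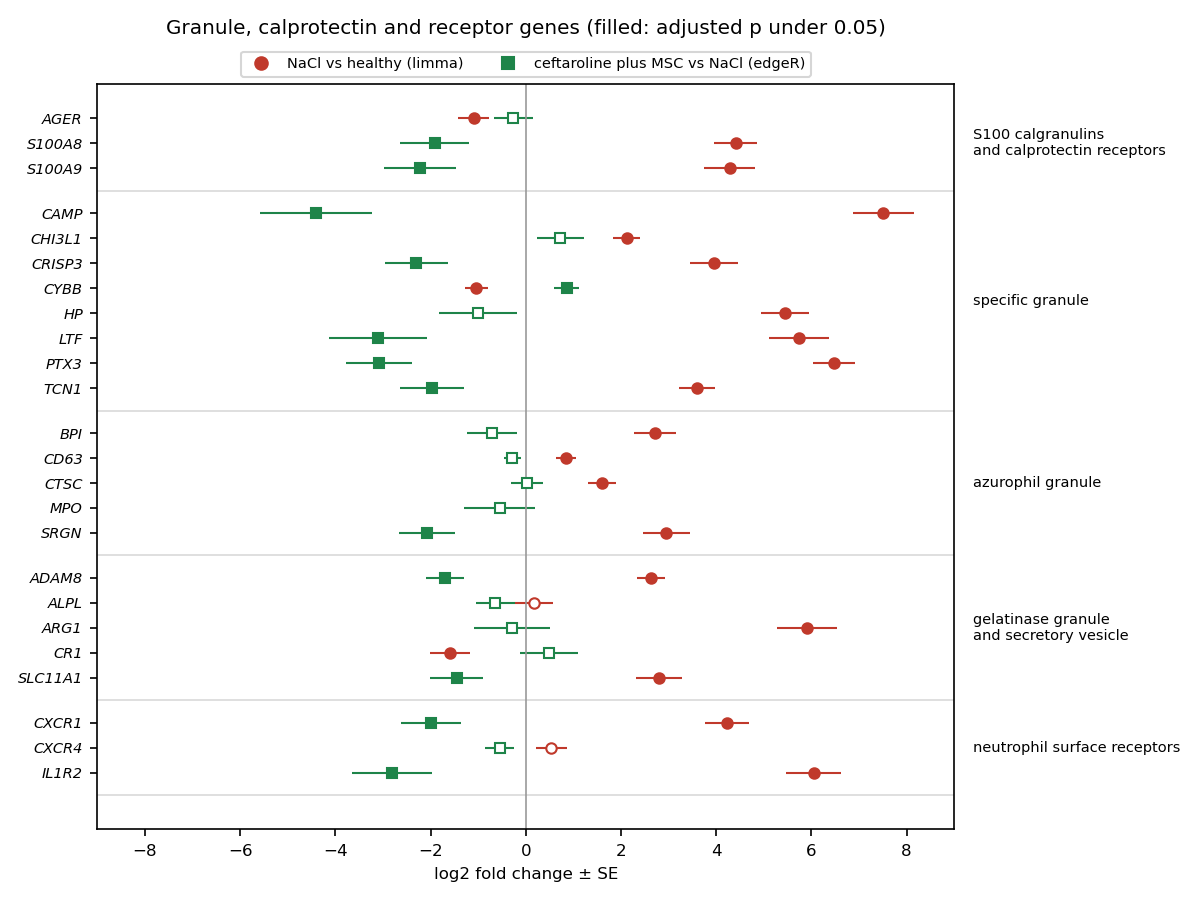
Log2 fold change and standard error of the tested genes of 5 neutrophil lists, for NaCl against healthy (circles, limma) and ceftaroline plus MSC against NaCl (squares, edgeR), which share the 7 NaCl libraries; filled symbols have an adjusted p under 0.05, and MMP8, with 1 read in the combined group, is left out. Among the calprotectin, specific, azurophil and gelatinase granule and surface receptor genes drawn, CAMP is farthest to the right among circles (7.51) and farthest to the left among squares (-4.40), and CYBB lies on the opposite side of 0 from most specific granule genes in both.

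Markers of other cells that can hold calprotectin moved with disease too. Both monocyte markers in the tables rose, where 29.7% of all genes did, CD14 by 2.68 (adjusted p = 6.02e-06 by limma) and VCAN by 1.95 (adjusted p = 6.12e-07). Their summed level was 208 to 340 RPM in healthy lung, 663 to 3166 RPM with NaCl, 512 to 2948 RPM with MSC, 523 to 2580 RPM with ceftaroline and 354 to 1603 RPM with both. CD14 was lower in the combined group than in NaCl (-1.29, adjusted p = 0.0219 by edgeR) and VCAN was not called (-0.07, adjusted p = 0.893). Of 8 macrophage markers 4 rose with disease, where 29.7% of all genes did. Leaving out healthy replicate 7 made this 6 and changed no count of the neutrophil lists against NaCl. In the combined group against NaCl 1 was higher, C1QA (1.24, adjusted p = 0.0137 by edgeR), and none lower. Of all 10345 genes tested there, 1761 were called higher and 14.9% lower. The summed level of the macrophage markers was 232 to 575 RPM in healthy lung, 512 to 3062 RPM with NaCl and 584 to 2400 RPM with both. The part of these cells in the S100A8 values was not tested.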

How the data were processed

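Messenger RNA of 35 rabbit lungs was sequenced as stranded single reads of 75 bp. The submitters' processing notes name DESeq2 1.24.0, TopHat2 2.1.1 and featureCounts 1.5.2. The genome build is not given in the sources used here. Of their values, the authors deposited 4 tables, each with a log2 fold change, its standard error, a Wald score and p-values from their own comparison, and with a signal column for each of 14 libraries, per the file headers DESeq2-normalized reads. Every value was a whole multiple of its library's step (100% within a relative tolerance of 1e-06), so whole reads were recovered. Read totals set the counting precision; MPO, with few reads, is the least precise.

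The members and gene lists were chosen with earlier results of these data known. The genes named are the members, list genes that passed a test or are a known partner of a member, and the 3 most similar genes per member. 1 further gene is left out of the lists.

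Normalized values were tested with limma 3.58.1 (R 4.3.3, intensity trend) on log2(value + 1) for genes with at least 10 in at least 7 of 14 libraries. Recovered reads were tested with edgeR 4.0.16 (quasi-likelihood, TMM) for the 6 pairs without a table and for the difference of MSC effects, as the files hold reads in all groups. DESeq2 1.42.0 was an alternative. Calls needed a Benjamini-Hochberg adjusted p under 0.05 over all genes, two-sided. The limma and edgeR tests were tried on simulated data. Permutation tests used scipy 1.17.1. p-values measure the spread between rabbits; replicates are numbered in accession order. Spreadsheet dates had replaced 11 symbols in 3 tables, and the names of the other table were used.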

Additional observations from a re-analysis of the deposited data

Results flagged for a closer look

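In 45 groups of 7 values (levels as log2(RPM + 1), and log2 ratios of reads), the highest or lowest library stood apart from its group in 5. The measure was its gap to the nearest library over the range of the group, on that log2 scale. Chance marks about 1 in 20 groups. S100A8 in NaCl replicate 5 was the lowest of its group, at 5645 RPM. CAMP in healthy replicate 7 was the highest healthy value, at 108 RPM, and LTF in the same library was the highest at 64.5 RPM. The log2 ratio of LTF over S100A8 in ceftaroline replicate 2 was the highest of its group at -4.59. The log2 ratio of CAMP over LTF in NaCl replicate 7 was the lowest of its group at -0.04.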

How the results depend on the processing

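For the 4 genes, the calls of S100A8, CAMP and LTF in NaCl against healthy held under all settings run, and no single-treatment comparison with NaCl called a member under any. Among libraries without a title ending, log2 fold changes were 5.86 (CAMP, MSC vs healthy, adjusted p = 0.0568 by edgeR), 5.08 (LTF, MSC vs healthy), 4.89 (LTF, ceftaroline vs healthy), 3.49 (S100A8, ceftaroline plus MSC vs healthy) and -2.54 (LTF, ceftaroline plus MSC vs NaCl), none called. MPO turned to 0.46 (ceftaroline plus MSC vs healthy) and 0.48 (ceftaroline vs MSC) and was -0.59 (ceftaroline plus MSC vs MSC) and -1.33 (difference of MSC effects), the LTF difference of MSC effects to -0.36, and the log2 ratios to -0.22 (CAMP over S100A8, ceftaroline plus MSC vs healthy) and 0.13 (S100A9 over S100A8, NaCl vs healthy). With no minimum on reads S100A8 in ceftaroline plus MSC vs NaCl was -1.89. Keeping only libraries without an ending leaves 2 healthy libraries and drops healthy replicate 7. The cause of these changes was not tested. The ending does not occur in ceftaroline or ceftaroline plus MSC, so that setting was not run between them.

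Leaving out each library in turn, log2 fold changes ranged for MSC vs healthy from 0.084 to 2.01 (MPO); for ceftaroline vs healthy from -0.19 to 1.11 (MPO); for ceftaroline plus MSC vs healthy from 1.89 to 2.83 (S100A8), 1.24 to 3.83 (CAMP), 1.22 to 3.43 (LTF) and -1.27 to 0.039 (MPO); for ceftaroline plus MSC vs NaCl from -2.44 to -1.71 (S100A8) and -0.92 to -0.099 (MPO); for ceftaroline plus MSC vs MSC from -1.21 to -0.35 (S100A8), -2.52 to -1.25 (LTF) and -2.34 to -0.98 (MPO); for ceftaroline vs MSC from -0.065 to 0.88 (S100A8), -0.22 to 0.64 (CAMP), -0.72 to 0.10 (LTF) and -1.27 to 0.086 (MPO); and for the difference of MSC effects from -0.52 to 0.61 (S100A8), -1.16 to 0.033 (CAMP), -0.75 to 0.70 (LTF) and -2.94 to -1.50 (MPO). The log2 ratio of S100A9 over S100A8 ranged from -0.068 to 0.08 (ceftaroline plus MSC vs NaCl) and -0.12 to 0.024 (ceftaroline vs NaCl).

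Scaling to total reads moved the median log2 fold change of all genes to -0.45 (NaCl vs healthy), 0.31 (MSC), 0.26 (ceftaroline) and 0.15 (ceftaroline plus MSC vs ceftaroline), turned 2836 higher of 5788 calls into 1476 of 5818 against healthy, and gave 293 calls with MSC (0 before) and 23 for ceftaroline plus MSC vs ceftaroline (4 before); CAMP with MSC was -2.93 (adjusted p = 0.0603 by limma). DESeq2 called 99 genes for ceftaroline plus MSC vs ceftaroline. Without endings limma called 3650 genes against healthy and 7 with MSC; without a minimum it called 1 with MSC. Title numbers are shared by ceftaroline and ceftaroline plus MSC. Deviations of same-numbered libraries correlated from -0.385 to 0.484, so the numbers were not taken to pair rabbits; with them as a replicate block 0 genes were called (1297 at an unadjusted p under 0.05), and CAMP stayed at -2.19 (adjusted p = 0.374 by limma).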
